A study of Mus musculus with 10 samples.

Results

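One liver array of the inbred mouse strain DBA/2J (D2), taken after 12 weeks on a high-fat, high-cholesterol diet, is described here across genes, against the 3 other D2 arrays of fed mice at weeks 1, 4 and 21. It is 1 of the 10 arrays of the series and 1 of the 4 arrays of fed D2 mice. The array was picked with its own values in view, because genes of cholesterol synthesis read high on it, with Sqle, Cyp51 and Nsdhl as the marker genes. All differences between D2 week 12 and the other D2 weeks are therefore given as a description, without a test.

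The study followed female mice of the strains D2 and C57BL/6J (B6) at 0, 1, 4, 12 and 21 weeks of feeding. Week 0 stands for mice that had not yet eaten the diet, and within a strain age rises together with the weeks of feeding. For each strain and week, equal amounts of liver RNA from 5 mice were combined and hybridised to 1 Affymetrix Mouse Genome 430 2.0 array, a chip on which each gene is read by 1 or more sets of short probes. The groups used below were D2 week 12 (1 array), D2 weeks 1, 4 and 21 (3 arrays), D2 week 0 (1 array), B6 week 12 (1 array), B6 weeks 1, 4 and 21 (3 arrays) and B6 week 0 (1 array). No week of a strain was measured more than once, so a difference at week 12 has no replicate check, and an effect of the week cannot be told apart from a property of the 1 pool or array. The number of arrays limits the precision.

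Cholesterol is built from acetyl-CoA by way of mevalonate, isoprenoid diphosphates and squalene, and then through lanosterol to cholesterol. The genes of these enzymes are driven by the transcription factor SREBP2, which SCAP escorts from the endoplasmic reticulum when sterols are scarce and which INSIG proteins hold back when sterols are plentiful. In liver, cholesterol from the diet is known to lower the expression of this pathway.

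Levels are given as log2 of the quantile-normalised signal plus a small pseudocount, and differences are week 12 minus the mean of weeks 1, 4 and 21 on that log2 scale. For dim genes the size of change is uncertain and depends on the pseudocount. A gene was called higher or lower when its difference was at least 1 (2-fold) and its week 12 level lay outside the range of the 3 other arrays. Over 11062 genes whose mean level lay above a filter of 3.73, the median of all probe sets, 119 were called higher (1.08%) and 147 lower (1.33%), 266 in all (2.4%). With the further demand of a level of at least 7 on the higher side, 66 were called higher (0.597%) and 24 lower (0.217%). On the signals as deposited, without normalisation, the split was 164 higher and 121 lower, and the median of all genes moved to 0.10. The array was not unlike the others in its quality values. Its 2% trimmed mean signal was 82.5, against 68.5, 70.7 and 83.4 at weeks 1, 4 and 21, its ratio of 3′ to 5′ signal of the Gapdh control was 0.675, against 0.698, 0.680 and 0.696, and it correlated with the other fed D2 arrays at 0.942 to 0.945 across genes, as those did among themselves (0.943 to 0.946). Hepatocyte genes marked all arrays as liver, and the summed signal of the 11 measured was 46620 at D2 week 12, against 49000, 47890 and 47480. As RNA of whole liver was measured, fewer cells of a type and less RNA per cell cannot be told apart.

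The list of sterol genes held 30 entries, of which 25 had a named probe set and 24 passed the level filter. Of the 24, 20 were called higher (83.3%) and 1 lower, beside 1.08% and 1.33% of all genes; since the array was picked for genes of this pathway, nothing is read from that share. Their median difference was 2.18, while the median of all genes was −0.03. On 18 of the 24 genes the D2 week 12 array was the highest of all 10, as it was on 924 of all 11062 genes (8.35%). Lying outside the range of the other fed weeks was common at any size of difference, with 2479 of all genes above the 3 arrays (22.4%) and 3474 below them (31.4%). The other 5 entries were not analysed here, and Npc1l1, the intestinal sterol importer, lay below the level filter.

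**Figure D1:**
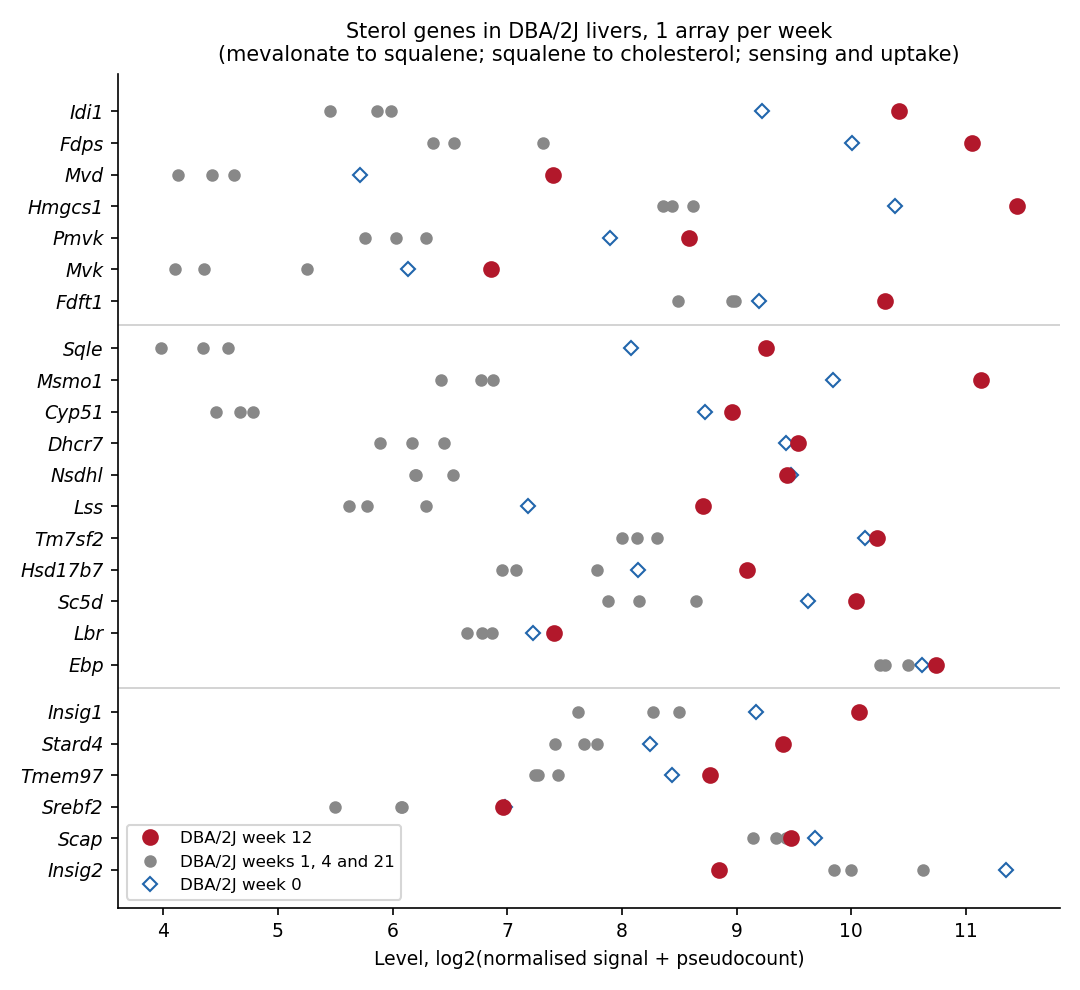
Levels of the 24 sterol genes on the D2 arrays, on the log2 scale along the horizontal axis, with genes in rows grouped by pathway step and 1 point per array. Red points are week 12, grey points weeks 1, 4 and 21, and open diamonds week 0. Week 12 lies above all 3 grey points for 23 genes and below them for Insig2.

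Between acetyl-CoA and squalene, all 7 genes measured were called higher at D2 week 12, by 1.48 to 4.65. Hmgcs1, the HMG-CoA synthase, read 11.45 at week 12, against 8.36, 8.62 and 8.43 at weeks 1, 4 and 21, a difference of 2.97. The enzyme joins acetoacetyl-CoA and acetyl-CoA near the start of the route. Mvk, the mevalonate kinase, read 6.86 at week 12, against 5.26, 4.36 and 4.10. Pmvk, which adds the next phosphate, read 8.58 at week 12, against 6.03, 6.29 and 5.76. For Mvd, the decarboxylase that yields isopentenyl diphosphate, week 12 had 7.40 and the other weeks 4.62, 4.42 and 4.12. These 3 enzymes of the mevalonate phosphates were called, so by the rule week 12 lay above all other fed weeks. The differences were 2.29 in Mvk, 2.56 in Pmvk and 3.01 in Mvd.

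The isoprenoid steps showed some of the widest gaps. Idi1, the isopentenyl diphosphate isomerase, read 10.42 at week 12, against 5.45, 5.99 and 5.86, a difference of 4.65 or 25.1-fold. Fdps, the farnesyl diphosphate synthase, had 11.05 at week 12 and 6.35, 7.32 and 6.54 at the other weeks, a difference of 4.32. Farnesyl diphosphate is also the donor for protein prenylation, a branch that leaves the sterol route here. Fdft1, the squalene synthase and the first step committed to sterols, read 10.29 at week 12, against 8.49, 8.99 and 8.96. Its difference of 1.48 was the smallest of the 7, and its probe set can also bind transcripts of other genes. Week 12 lay above the other fed weeks for each of the 7, as the rule for a call demands, beside 22.4% of all genes.

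Of 11 genes between squalene and cholesterol, 9 were called higher, and week 12 lay above all 3 other fed weeks in each of the 11, beside 22.4% of all genes. Sqle, the squalene epoxidase, had the largest difference of any gene kept. It read 9.26 at week 12, against 4.56, 4.35 and 3.98, a difference of 4.96 or 31.2-fold. Lss, which closes the ring system to lanosterol, read 8.71 at week 12, against 5.78, 5.62 and 6.30; its probe set can also bind other transcripts. Cyp51, the lanosterol demethylase, read 8.96 at week 12, against 4.78, 4.67 and 4.46, a difference of 4.32. Sqle and Cyp51 are marker genes of the array, so their place above the other weeks follows from the choice.

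The enzymes that strip and rearrange the methylated sterols followed the same order. Tm7sf2, a sterol C14 reductase, read 10.23 at week 12, against 7.997, 8.31 and 8.13. Msmo1, the methylsterol monooxygenase, had 11.14 at week 12 and 6.77, 6.88 and 6.42 at the other weeks, a difference of 4.45 or 21.8-fold. Nsdhl, the dehydrogenase that acts with it, read 9.44 at week 12, against 6.19, 6.53 and 6.20, a difference of 3.13. Hsd17b7, the ketosteroid reductase of the same complex, read 9.09 at week 12, against 7.79, 7.08 and 6.95, with a probe set that can bind other transcripts. All 4 were called, so by the rule week 12 stood above the range of the other weeks.

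The last steps were less even. Sc5d, the sterol C5 desaturase, read 10.04 at week 12, against 7.88, 8.64 and 8.15, a difference of 1.81. Dhcr7, the final reductase of one branch, read 9.54 at week 12, against 6.45, 6.17 and 5.89, a difference of 3.37. Not called were Ebp and Lbr, whose week 12 level was above the other weeks by less than 2-fold. For Ebp, the sterol isomerase, week 12 had 10.74 and the other weeks 10.25, 10.49 and 10.30. For Lbr, a nuclear envelope protein with sterol C14 reductase activity, week 12 had 7.41 and the other weeks 6.87, 6.78 and 6.65. Tm7sf2 catalyses the same reduction as Lbr, and the differences were 2.08 in Tm7sf2 and 0.64 in Lbr.

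Among genes of sterol sensing and uptake, 4 of 6 were called higher and 1 lower, beside 1.08% and 1.33% of all genes. Srebf2, which encodes SREBP2, read 6.96 at week 12, against 6.08, 6.08 and 5.498, a difference of 1.08. Scap read 9.47 at week 12, against 9.43, 9.34 and 9.15, a difference of 0.17 that was not called. The INSIG pair went in opposite directions. Insig1, itself a target of SREBP2, had 10.07 at week 12 and 7.62, 8.50 and 8.27 at the other weeks, a difference of 1.94. Insig2 had 8.85 at week 12 and 10.63, 9.85 and 10.001 at the other weeks, a difference of −1.31. Both genes were called, so by the rule week 12 lay outside the range of the other fed weeks. Stard4, a carrier of cholesterol within the cell, read 9.40 at week 12, against 7.42, 7.79 and 7.67. Tmem97, a sterol-responsive membrane protein, read 8.77 at week 12, against 7.44, 7.25 and 7.26. The differences were 1.78 in Stard4 and 1.45 in Tmem97.

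Further probe sets of the same genes gave a repeat reading of the same RNA. Above the level filter there were 17, from 11 genes. Of these, 15 read higher at week 12 by at least 2-fold and lay above all 3 other weeks. The other 2 belonged to Insig2 and read lower, by 1.07 and 1.10, as did the probe set used for that gene (−1.31). Of 10 further probe sets below the filter, 9 had a positive difference, and 1 of Fdps had −0.75.

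Against the unfed mice, the array was still on the high side. The week 12 level of D2 was above that of D2 week 0 in 20 of 24 sterol genes, with a median difference of 0.71. Over all genes it was above in 5284 of 11062, with a median of −0.02. Idi1 read 10.42 at week 12, against 9.22 at week 0. Sqle read 9.26 at week 12, against 8.08 at week 0. Nsdhl had nearly the same level at both, with 9.44 at week 12 and 9.48 at week 0. The median of the 24 genes, taken on each array against the mean of D2 weeks 1, 4 and 21, was 2.18 on the D2 week 12 array. The arrays of weeks 1, 4 and 21 had medians of 0.05, 0.15 and −0.14, and the array of unfed mice had 1.36. The SD of the 3 other fed weeks was 0.15.

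Promoter sequences of the sterol genes are shown because many of these genes were called higher on the same array. Of the 20 sterol genes called higher, 16 had an entry in the RefSeq promoter table of build GRCm38.p6, with 19 promoters that run from 250 bases before to 50 bases after the annotated start. Sqle and some others are named only. The motifs searched, on both strands, were a sterol element TCACNCCAC, the CCAAT box CCAAT and the GC box GGGCGG, and none of these contains another. The sterol element was found in 1 of the 19 promoters (5.26%), against 1.24% of all 32851 promoters in the table. A CCAAT box was found in 16 of the 19 (84.2%), and in 1 or more promoters of each of the 16 genes, against 37.4% of all promoters. A GC box was likewise found in 16 of the 19 (84.2%), against 35.7% of all promoters. Among the 26 promoters of all sterol genes kept, called or not, 19 had a CCAAT box (73.1%) and 22 a GC box (84.6%). Nothing about the call is read from these shares. A match is a description of letters and not a bound site, and no match says only that these letters are not in the window. Below, capitals mark the sterol element and the CCAAT boxes, which appear as ATTGG where they lie on the other strand, and each sequence runs 5′ to 3′ along the gene's own strand.
Hmgcs1: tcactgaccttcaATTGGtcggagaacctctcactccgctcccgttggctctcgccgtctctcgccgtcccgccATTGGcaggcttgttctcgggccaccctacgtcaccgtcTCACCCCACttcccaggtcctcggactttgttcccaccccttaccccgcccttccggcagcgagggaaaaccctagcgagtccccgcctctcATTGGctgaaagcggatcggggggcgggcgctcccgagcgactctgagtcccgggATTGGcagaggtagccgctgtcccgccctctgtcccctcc
Cyp51: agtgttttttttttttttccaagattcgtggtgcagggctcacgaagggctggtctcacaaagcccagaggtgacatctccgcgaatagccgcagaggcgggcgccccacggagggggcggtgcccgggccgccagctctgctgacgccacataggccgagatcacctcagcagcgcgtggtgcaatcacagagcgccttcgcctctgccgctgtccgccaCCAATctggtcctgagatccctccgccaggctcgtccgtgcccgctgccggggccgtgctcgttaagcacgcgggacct
Nsdhl: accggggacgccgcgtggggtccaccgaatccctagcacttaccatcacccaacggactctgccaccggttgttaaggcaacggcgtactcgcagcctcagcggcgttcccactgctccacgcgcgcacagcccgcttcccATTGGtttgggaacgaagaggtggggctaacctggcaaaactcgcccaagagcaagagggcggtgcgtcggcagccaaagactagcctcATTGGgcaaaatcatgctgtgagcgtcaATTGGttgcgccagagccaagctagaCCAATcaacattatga
Mvk: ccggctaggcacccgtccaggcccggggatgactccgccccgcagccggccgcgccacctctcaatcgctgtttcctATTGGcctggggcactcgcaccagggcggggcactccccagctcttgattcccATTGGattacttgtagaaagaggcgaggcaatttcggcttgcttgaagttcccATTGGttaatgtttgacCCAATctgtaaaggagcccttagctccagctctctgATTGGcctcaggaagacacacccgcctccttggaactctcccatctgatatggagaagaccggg
The Hmgcs1 promoter (chr13:119690101-119690400, plus strand) was the one with a sterol element, TCACCCCAC, which begins at position −137 from the start, and it also held 4 CCAAT boxes and 3 GC boxes. The Cyp51 promoter (chr5:4104648-4104947, minus strand) held 1 CCAAT box and 1 GC box. The Nsdhl promoter (chrX:72918271-72918570, plus strand) held 4 CCAAT boxes and 1 GC box. The Mvk promoter (chr5:114444019-114444318, plus strand) held 5 CCAAT boxes and 2 GC boxes. The differences at D2 week 12 were 2.97 for Hmgcs1, 4.32 for Cyp51, 3.13 for Nsdhl and 2.29 for Mvk.

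**Figure D2:**
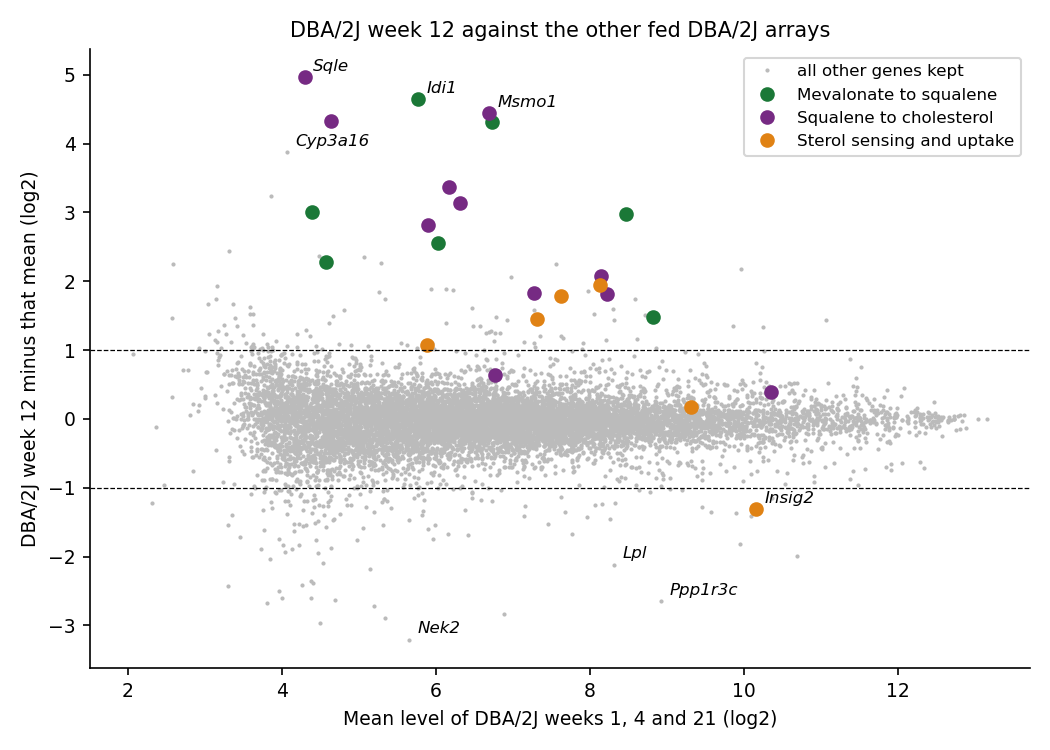
Difference of D2 week 12 from the mean of D2 weeks 1, 4 and 21 (vertical axis, log2) against that mean (horizontal axis, log2) for the 11062 genes kept, 1 point per gene. Coloured points are sterol genes by pathway step and dashed lines mark 2-fold; Sqle at 4.96 is the highest point and Nek2 at −3.21 the lowest.

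Sterol genes made up 10 of the 12 largest increases among genes that reached a level of 7 at week 12. The other 2 were Cyp3a16 and Rsph4a. Cyp3a16, a cytochrome P450 of drug metabolism, read 7.94 at week 12, against 4.51, 4.75 and 2.95, a difference of 3.87. Its week 0 level was 7.15. Rsph4a, a radial spoke protein of motile cilia, read 7.10 at week 12, against 4.05, 4.24 and 3.30, a difference of 3.24. By the rule for a call, both lay above the other fed weeks, whose values for these genes were near the level filter of 3.73. At 4-fold or more, 23 genes were higher, 13 of them sterol genes. Since the array was picked for genes of this pathway, nothing is read from this count or from the 10 of 12.

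Several genes beside the pathway were picked after their values were seen. Aacs, the cytosolic synthetase that turns acetoacetate into acetoacetyl-CoA for lipid synthesis, read 9.04 at week 12, against 6.64, 7.09 and 7.19, a difference of 2.07. Mmab, an enzyme of cobalamin metabolism whose gene neighbours Mvk in the mouse genome, read 6.39 at week 12, against 4.98, 5.15 and 4.31. Erg28, a scaffold of the sterol demethylation complex in yeast, read 9.89 at week 12, against 7.89, 8.43 and 8.55. All 3 were highest of the 10 arrays at D2 week 12. Rdh11, a retinol dehydrogenase, was higher by 1.88, Lipg, the endothelial lipase, by 1.35, and Onecut1, a liver transcription factor, by 2.35.

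Genes of fatty acid synthesis were partly higher. Of 18 measured, 8 were called higher (44.4%) and 1 lower, beside 1.08% and 1.33% of all genes, and their median difference was 0.84. Thrsp, a regulator of lipogenesis, read 12.14 at week 12, against 9.55, 10.04 and 10.30, a difference of 2.17. Pnpla3, a lipid droplet protein, had 6.85 at week 12 and 4.36, 4.94 and 4.15 at the other weeks, a difference of 2.37. Fasn, the fatty acid synthase, read 10.22 at week 12, against 8.04, 8.98 and 9.12. These 3 were among the 8 called higher. The others were Acacb (1.88), Acss2 (1.85), Acly (1.49), Fads1 (1.33) and Elovl6 (1.20), which make malonyl-CoA, acetyl-CoA or longer and less saturated chains. Thrsp, Pnpla3, Acacb and Acss2 were named for the largest absolute differences in this list. Its other genes were named after their values were seen.

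The regulator and the stearoyl-CoA desaturases did not share that direction. Srebf1, which encodes SREBP1, read 9.67 at week 12, against 9.68, 10.67 and 10.91, below all 3 but not called. Scd1, the main hepatic stearoyl-CoA desaturase, had a difference of −0.25. Scd2, its relative, read 4.66 at week 12, against 5.93, 5.55 and 6.06, a difference of −1.18 that was called. Against week 0, all 18 genes of the list were higher at D2 week 12, with a median of 0.83, beside 5284 of all 11062 genes.

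Of 8 genes driven by the oxysterol receptor LXR or of sterol efflux, 0 were called in either direction, beside 2.4% of all genes. The median difference of the 8 was −0.48. Abcg5, one partner of the transporter that exports sterols into bile, read 9.01 at week 12, against 9.56, 9.73 and 10.02. Its partner Abcg8 read 8.54 at week 12, against 8.95, 8.93 and 9.60. Abca1, which loads cholesterol onto apolipoprotein, had 10.13 at week 12 and 10.65, 10.68 and 10.97 at the other weeks. Each of these 3, and Abcg1 with a difference of −0.70, lay below all other fed weeks by less than 2-fold, as did Mylip (−0.34), beside 31.4% of all genes. The other 3, Nr1h3 (0.01), Pltp (0.07) and Lpcat3 (−0.04), lay within the range of the other weeks. At D2 week 0, Abca1 read 10.11 and Abcg8 read 8.62. Rnf145, a ubiquitin ligase that LXR induces, was picked after its value was seen and was lower by 1.01.

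Of 12 genes of bile acid synthesis, 1 was called higher and 1 lower, beside 1.08% and 1.33% of all genes. The sign of the list median depended on the scale (−0.17 normalised, 0.03 as deposited). Cyp8b1, the hydroxylase that makes cholic acid, read 9.80 at week 12, against 8.21, 8.70 and 5.75, a difference of 2.24. Cyp7a1, the rate-limiting enzyme, read 10.31 at week 12, against 9.70, 10.27 and 9.74, and was not called. Acox2, which shortens the side chain, was lower by 1.14. In bile acid sensing and transport, 0 of 13 genes were called higher and 1 lower, Slco1a1, an organic anion uptake carrier, which had 6.81 at week 12 and 8.11, 8.89 and 7.19 at the other weeks.

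Lists of fatty acid oxidation (19 genes), fasting response (10 genes), acute phase proteins (22 genes) and interferon response (13 genes) held 0 genes called in either direction. Of all genes 2.4% were called, so 0 in lists of this size is near that share. In triglyceride and lipid droplet metabolism, 1 of 11 genes was called higher and 0 lower. This was Lpin1, a phosphatidate phosphatase, with 8.36 at week 12 and 7.72, 6.66 and 6.39 at the other weeks. Fitm1, a lipid droplet protein picked after its value was seen, was higher by 2.25. It had 4.84 at week 12, against 2.44, 2.58 and 2.76 at the other weeks, which lay below the level filter.

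**Figure D3:**
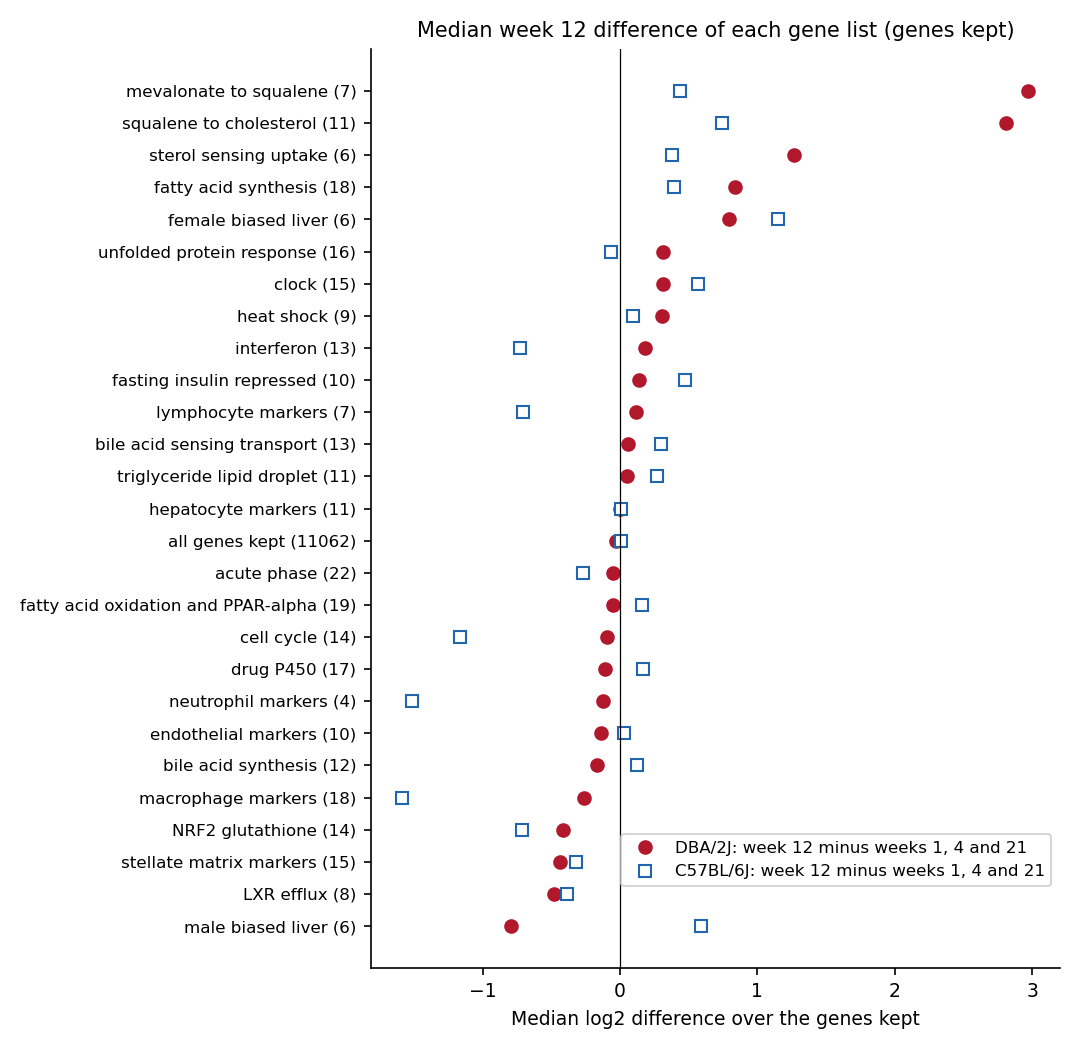
Median log2 difference of week 12 from weeks 1, 4 and 21 for each gene list with at least 4 genes kept (number in brackets), along the horizontal axis, in D2 (filled red circles) and B6 (open blue squares). The lists of the sterol pathway before and after squalene have D2 medians of 2.97 and 2.81, and all genes lie at −0.03 in D2.

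Of the 119 genes called higher, 27 had a mean over weeks 1, 4 and 21 below the level filter, so their size of change rests on dim signals. The same holds for 84 of the 147 genes called lower, whose week 12 level was below the filter. The 12 largest decreases were therefore taken from genes that averaged at least 7 over weeks 1, 4 and 21. Ppp1r3c, a subunit that targets protein phosphatase to glycogen, read 6.28 at week 12, against 8.35, 9.32 and 9.10, a difference of −2.64. Its relative Ppp1r3g, picked after its value was seen, went the other way, with 7.83 at week 12 and 5.84, 6.54 and 5.44 at the other weeks. Lpl, the lipoprotein lipase, read 6.20 at week 12, against 8.38, 7.98 and 8.59, a difference of −2.12. These genes were taken from those called, so by the rule week 12 lay outside the range of the other fed weeks.

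Cyp2d9, a cytochrome P450, read 8.69 at week 12, against 11.00, 10.63 and 10.42. Gstm3, a glutathione transferase whose probe set can bind other transcripts, read 8.13 at week 12, against 9.38, 10.79 and 9.68. The cell contact genes Cdh1, for E-cadherin, and Cldn1, for claudin, were lower by 1.52 and 1.45. Cdh1 had 5.93 at week 12 and 7.21, 7.52 and 7.62 at the other weeks. Etnppl, which breaks down phosphoethanolamine, read 8.68 at week 12, against 10.46, 10.03 and 9.76. The other 5 were Adam11 (−1.67), Car14 (−1.43), Eps8l2 (−1.41), Osgin1 (−1.37) and Sco2 (−1.35). In each, week 12 was the lowest of the 4 fed D2 arrays, as the rule for a call demands. Gstm3 was the 1 gene called among 14 of the NRF2 and glutathione list, beside 1.33% of all genes called lower. That list had a median of −0.41. Slc13a5, the hepatic citrate importer, was picked after its value was seen and read 4.21 at week 12, against 5.97, 5.78 and 6.13.

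**Figure D4:**
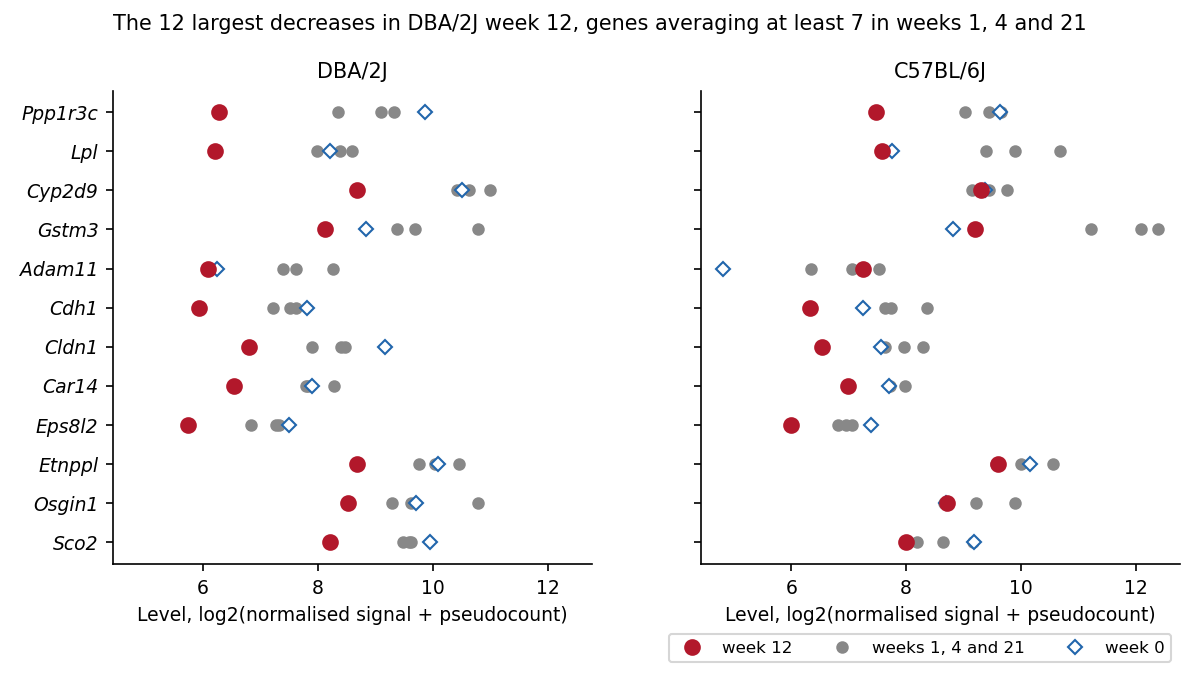
Levels of the 12 genes with the largest decrease at D2 week 12, on the log2 scale, in D2 (left) and B6 (right), 1 point per array. Red points are week 12, grey points weeks 1, 4 and 21, and open diamonds week 0. In D2, week 12 lies below every grey point, as the rule for a call demands.

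The clock, heat shock and unfolded protein lists are short, so a single call already exceeds the 1.08% of all genes called higher. Of all genes, 1.33% were called lower. Among clock genes, 1 of 15 was called higher and 1 lower, and nothing is read from these counts. Ciart, a repressor within the clock, read 7.09 at week 12, against 6.72, 4.43 and 4.61, and Arntl, for the clock activator BMAL1, read 3.33 at week 12, against 4.21, 4.61 and 4.97. The B6 week 12 array differed from its other fed weeks in the same directions, by 1.95 in Ciart and −1.21 in Arntl. In the heat shock list, 2 of 9 genes were higher, Hspa1b (1.44) and Hspa1a (1.28). In the unfolded protein list, 3 of 16 were higher, Pdia4 (1.24), Sdf2l1 (1.07) and Creld2 (1.05), and Trib3 was lower (−1.40). Hour of collection and feeding state were not given in the sources used here, and the part of these genes in the sterol result was not tested.

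Genes that female livers express more than male ones had a median difference of 0.79 over 6 genes, with 2 called higher, Hao2 (1.74) and Sult3a1 (1.44). Genes of male bias had a median of −0.80 over 6 genes, with 3 called lower, Cyp2d9 (−1.999), Ugt2b38 (−1.38) and Slco1a1 (−1.25). Both medians kept their sign on the signals as deposited (0.94 and −0.66). All arrays are labelled female, and the part of these lists in the sterol result was not tested. Among 17 drug-metabolising P450 genes, 2 were higher, Cyp3a16 and Cyp3a44 (1.52), and 2 lower, Cyp2d9 and Cyp2c55 (−1.33). These counts also stand beside 1.08% and 1.33% of all genes. Genes of the Cyp3a, Cyp2c and Cyp2d clusters have near-identical copies, so their probe sets can read more than 1 of them.

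Of 20 macrophage markers, 18 passed the level filter; they had a median of −0.26 and a summed signal of 4189 at D2 week 12, against 5926, 4062 and 5723 at weeks 1, 4 and 21, so week 12 lay inside the range. One of them was called lower, Marco, a scavenger receptor, with 4.30 at week 12 and 6.33, 5.08 and 6.27 at the other weeks. The 15 stellate cell and matrix markers had a median of −0.44 and a summed signal of 2423 at week 12, against 3084, 2949 and 3017, with 2 called lower. Col1a1, for the collagen chain, read 0.87 at week 12, against 4.80, 1.44 and 3.67, and Des, for desmin, was lower by 1.27. The D2 mean of Col1a1 over weeks 1, 4 and 21 was 3.30, below the level filter of 3.73. It passed that filter on the mean of all arrays, with levels of 4.54 to 7.57 in B6. Des read 3.27 at D2 week 12, so both changes rest on dim signals. The 10 endothelial markers summed to 1329 at week 12, against 1449, 1512 and 1574. The 7 lymphocyte markers kept, of 15 listed, summed to 155 at week 12, against 102.3, 154.6 and 200.2, and the 4 neutrophil markers kept, of 9 listed, summed to 102.1, against 100.7, 114.7 and 147.3. Of 2 bile duct markers kept, Krt23 was lower by 1.005 and was called, and Epcam had a difference of 0.96 that was not called. The 1 erythroid marker kept, Alas2, had a difference of −0.56 that was not called. Of all genes, 1.33% were called lower, and a single call in lists this short already exceeds that share. The part of these cells in the sterol result was not tested.

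Whether the same week showed the same pattern was asked of the B6 arrays, which had no part in the choice. The B6 week 12 array was compared with B6 weeks 1, 4 and 21 in limma, with the lone array assumed to vary like the groups of 3. Of 11062 genes, 1 passed at an adjusted p of 0.05 as higher (0.00904%) and 0 as lower (0%), while 469 were higher and 614 lower at an unadjusted p under 0.05. Of the 24 sterol genes 0 passed, and 6 had an unadjusted p under 0.05. In B6, 22 of the 24 had a positive difference (91.7%, against 51.2% of all genes), with a median of 0.53, where the SD of the sterol median over the 3 other fed weeks was 0.37. The B6 week 12 array did not stand apart from B6 week 1: taken on each array against the mean of D2 weeks 1, 4 and 21, the median of the 24 genes was 0.45 at B6 week 12, and 0.46, −0.08 and −0.33 at B6 weeks 1, 4 and 21. By the rule of 2-fold and range, 5 of 24 were higher (20.8%, against 1.27% of all genes) and 1 lower (4.17%, against 3.93% of all genes).

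The D2 and B6 values stand side by side for the genes that chose the array. Sqle had a difference of 4.96 in D2 and of 0.33 ± 0.45 in B6 (SE, limma adjusted p = 0.842). B6 read 4.74 at week 12, against 4.98, 4.48 and 3.79 at weeks 1, 4 and 21, so the groups overlapped. Cyp51 had 4.32 in D2 and 0.78 ± 0.60 in B6 (limma adjusted p = 0.696). Nsdhl had 3.13 in D2 and 0.36 ± 0.34 in B6 (limma adjusted p = 0.759). The difference between the strains was not tested, as it uses the array that was picked. The week 12 level of D2 was above that of B6 in 22 of 24 sterol genes, with a median of 1.79, beside 5275 of all 11062 genes. For the sterol genes, the means of the other fed weeks differed between D2 and B6 by a median of 0.03. The 2 exceptions were Sc5d, with 10.04 in D2 and 10.71 in B6 at week 12, and Lbr, with 7.41 in D2 and 7.50 in B6.

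The 5 sterol genes past 2-fold in both strains were Fdps, Msmo1, Tm7sf2, Insig1 and Stard4. Msmo1 had a difference of 4.45 in D2 and 1.21 ± 0.35 in B6 (limma adjusted p = 0.352). Fdps had 4.32 in D2 and 1.48 ± 0.67 in B6 (limma adjusted p = 0.528). Insig2 was lower in both, by 1.31 in D2 and by 1.70 ± 0.41 in B6 (limma adjusted p = 0.283), where it read 8.73 at week 12, against 10.59, 9.84 and 10.87.

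Over all genes, 31 were called higher in both strains, 26.1% of the 119 in D2 and 22.1% of the 140 in B6. A further 38 were lower in both, 25.9% of the 147 in D2 and 8.74% of the 435 in B6. Cyp8b1 had a difference of 2.24 in D2 and 5.14 ± 0.98 in B6 (limma adjusted p = 0.224). In B6 it read 8.34 at week 12, against 3.35, 3.62 and 2.62. Ppp1r3g had 1.89 in D2 and 3.34 ± 0.73 in B6 (limma adjusted p = 0.271), and Aacs had 2.07 in D2 and 1.59 ± 0.34 in B6 (limma adjusted p = 0.254). On the low side, Lpl had −2.12 in D2 and −2.41 ± 0.44 in B6 (limma adjusted p = 0.22), and Ppp1r3c had −2.64 in D2 and −1.90 ± 0.38 in B6 (limma adjusted p = 0.224). These 5 genes are among those called in both strains, so their calls in B6 add nothing to the counts above. In B6, 1.27% of all genes were called higher and 3.93% lower. None of the 5 passed the limma threshold.

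**Figure D5:**
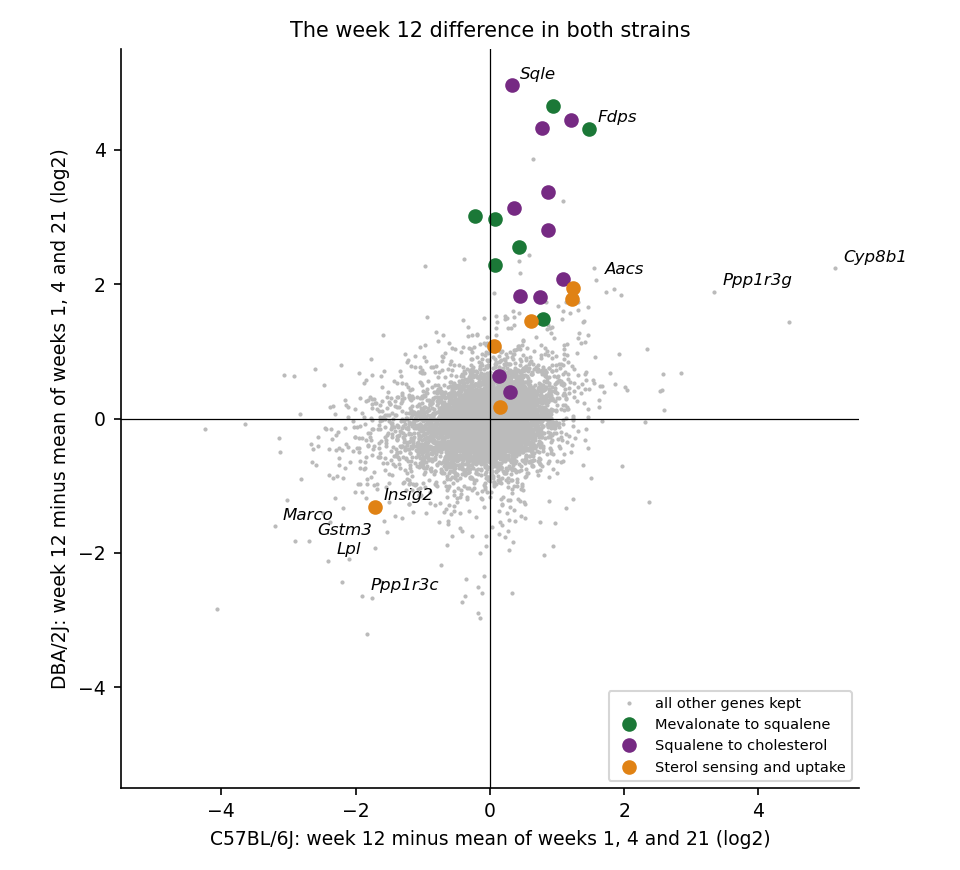
Difference of week 12 from the mean of weeks 1, 4 and 21 in D2 (vertical axis, log2) and in B6 (horizontal axis, log2), 1 point per gene over 11062 genes, with sterol genes coloured by pathway step. Sqle stands at 4.96 in D2 and 0.33 in B6, and Cyp8b1 at 2.24 in D2 and 5.14 in B6.

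The 1 gene that passed in B6 was Mup5, a major urinary protein. It read 7.30 at B6 week 12, against 4.40, 4.29 and 4.66, a difference of 2.85 ± 0.22 (SE, limma adjusted p = 0.0175). In D2 it read 7.62 at week 12, against 6.80, 7.08 and 6.96, and was not called. Major urinary proteins are a family of near-identical genes, so the identity of the transcript is uncertain. The call was lost when any 1 of the 3 D2 arrays of weeks 1, 4 and 21 was left out of the fit (limma adjusted p from 0.0655 to 0.104) and with the B6 arrays alone (limma adjusted p = 0.534).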

How the data were processed

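Liver RNA was read on 10 Affymetrix arrays, 1 per strain and week, from pooled RNA of 5 mice each. The authors deposited linear signal intensities made in GCOS, per the submitters' processing notes; the version and scaling target are not given in the sources used here. Total RNA was extracted with Trizol, per the labels' protocols.

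From these intensities, log2(signal + 1.05) was taken, with the 10th percentile of the deposited table as pseudocount, and arrays were quantile normalised in limma 3.58.1 (R 4.3.3, data.table version 1.17.8). Of 45101 probe sets, 64 controls were left out. Names came from 34945 probe sets with 1 symbol, while 932 with several and 9160 with none were not used. Of the probe sets of a gene, that with the highest mean was kept, and 11062 of 18193 genes passed a filter at the 50th percentile of probe set means (3.73). The 28 gene lists had 384 entries, of which 30 had no named probe set and 39 lay below the filter. Members, lists and named genes were chosen with earlier results of these data known.

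D2 week 12 was described without a test, since its values chose it. B6 week 12 was tested on 4 group means of the 8 fed arrays (lmFit, eBayes with trend, 4 residual degrees of freedom), with Benjamini-Hochberg adjustment over all genes and a threshold of 0.05. The groups of 3 join different weeks, so their spread includes time on the diet. The fit was tested on simulated data.

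Named were all sterol members and genes that passed in B6. Also named were the 12 largest differences in each direction with a level of at least 7 on the higher side. From each other list came up to 4 members with the largest absolute difference at D2 week 12. The text prints some of these genes, and genes picked outside these rules are marked in the text. Alternatives were other scales, a pseudocount of 16, other filters and folds, the mean of probe sets, other variance models and each array left out. Promoter sequences are RefSeq's (GRCm38.p6), searched in Python 3.11.15. Figures were drawn with matplotlib 3.10.9.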

Additional observations from a re-analysis of the deposited data

Results flagged for a closer look

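Medians of opposite sign in D2 and B6 at week 12 were found for 9 of the 28 lists, and the medians of all genes were −0.03 in D2 and 0.01 in B6. In the lists of male-biased liver genes and of drug-metabolising P450 genes the week 12 array also lay below its other fed weeks in D2 and above them in B6. The male-biased list had a median difference of −0.796 over 6 genes in D2 and of 0.588 in B6. The P450 list had a median difference of −0.112 over 17 genes in D2 and of 0.169 in B6, and on the signals as deposited the D2 median was 0.05. Neither difference between the strains was tested, as both use the D2 week 12 array, and each strain had 1 array at that week.

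Probe sets without a single gene symbol entered no comparison. Of 2953 above the level filter, 59 were called higher (2%) and 40 lower (1.35%) at D2 week 12, beside 1.08% and 1.33% of the named genes.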

How the results depend on the processing

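The 20 sterol genes called higher kept a positive difference in all 177 values over the alternatives, and 175 of these were at least 2-fold, the lowest being 0.885. Of the 20, 13 passed at 4-fold. The other counts were 17 to 21, and 19 to 20 with 1 D2 array left out. The sterol median of 2.18 became 2.36 on the signals as deposited, 1.95 with a pseudocount of 16, 1.94 with the 75th percentile filter and 1.93 with the mean of probe sets, and 2.06 to 2.32 with 1 D2 array left out.

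The counts over all genes depended on the settings. The 119 higher and 147 lower genes became 70 and 36 with a pseudocount of 16, 946 and 1069 with no filter, 60 and 35 with the 75th percentile filter, 401 and 561 at 1.5-fold, and 23 and 19 at 4-fold. With 1 D2 array left out they were 131 to 154 and 152 to 174. Of the 147 lower genes, 35 were shared with a pseudocount of 16, against 69 of the 119 higher genes.

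In B6, the 1 gene higher became 0 in the fit of the B6 arrays alone and 0 to 4 with 1 array left out. The 4, without the B6 week 1 array, were Mup5, Mup10, Mup3 and Cyp2c54, named after the result was seen. The 0 genes lower became 0 to 1, which was Pnkd, without the B6 week 4 array. The sterol median in B6, 0.53, ranged from 0.33 to 0.74 over the alternatives and from 0.38 to 0.74 with 1 B6 array left out. The alternatives for Mup5 in B6 were chosen after seeing the data, and its adjusted p was 0.00894 to 0.0481 in those that kept the call. The cause of these changes was not tested.

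No paired analysis was possible because the groups compared hold 1 array at week 12 and the replicate numbers of the other weeks pair no arrays with it. Signal over background limits the dim genes, as 84 of the 147 lower genes were below the filter at week 12.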

Other observations

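The organic anion carriers Slc22a26, Slc22a27 and Slc22a29 were higher by 1.14, 1.48 and 1.21 in D2 and by 1.42, 1.08 and 1.31 in B6, and the probe sets of Slc22a27 and Slc22a29 can bind transcripts of other genes. Of 14 cell cycle genes, 1 was called lower in D2, beside 1.33% of all genes. This was Mcm6, a subunit of the replicative helicase, with 3.19 at week 12 and 4.61, 4.58 and 4.81 at weeks 1, 4 and 21. Nek2, a mitotic kinase, had the lowest difference of all genes kept, with 2.45 at week 12 and 5.74, 5.83 and 5.39 at the other weeks, and its probe set can bind transcripts of other genes. The median difference of the cell cycle list was −0.10 in D2 and −1.17 in B6. Mcm6 was named for the largest absolute D2 difference in its list. The other genes here were picked after their values were seen.

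The 18 macrophage markers had a median difference of −0.26 in D2 and of −1.58 in B6. By the rule of 2-fold and range, 17 of the 18 were lower in B6, beside 3.93% of all genes. The summed signal of these markers in B6 was 4271 at week 12, against 8786, 23800 and 12670 at weeks 1, 4 and 21.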
